A study of Mus musculus with 21 samples.

Results

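NWD1VitD was compared with AIN in sorted Lgr5 cells of the mouse intestine, the cycling stem cells of the crypt base. The comparison uses 6 of the 21 libraries of the series, chosen by their labelled diet, with 3 libraries in each group. Of 37310 genes in the count table, 16050 had enough counts to be tested. All mice carried the Lgr5EGFPcre-ERT2 allele, in the control group too, were fed from weaning and were 3 months old. AIN mice ate AIN76A, a purified control diet. NWD1VitD mice ate NWD1 with vitamin D given in the labels as 2.3 IU per g body weight. NWD1 is known as a purified Western-style diet, a modification of AIN76A richer in fat and poorer in calcium, vitamin D, fibre and methyl donors. The labels do not list its makeup, and the diets compared differ in more than vitamin D. AIN held 2 females and 1 male, and NWD1VitD 1 female and 2 males. NWD1Ca (NWD1 plus calcium, labelled 7.0 mg per g, all female) and AINlowVitD (AIN76A whose vitamin D was lowered to a labelled 0.11 IU per g, 2 females and 1 male) served as the most similar groups for comparison. The brightest EGFP cells of dispersed crypts were collected in bulk. The intestinal region is not given in the labels, nor whether each library came from 1 mouse, so p-values measure the spread between these libraries, which may be technical.

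Vitamin D acts through its receptor, the nuclear factor VDR, which pairs with RXR on DNA and recruits or releases coactivators and corepressors. In the intestine its known targets serve calcium uptake: the channel Trpv6 lets calcium in at the brush border, the binding protein S100g (calbindin-D9k) carries it through the cell, and the pump Atp2b1 (PMCA1) moves it out at the base. Low calcium intake raises the active hormone, which the kidney makes from dietary vitamin D, so that both nutrients bear on these genes.

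The libraries of the 2 diets differed in more than gene expression. Gene counts ranged from 42664400 to 88931614 in AIN and from 28652263 to 35248316 in NWD1VitD. The share of mitochondrial ribosomal RNA was 0.234% to 0.901% in AIN and 3.53% to 5.07% in NWD1VitD, and the 10 most abundant genes took 5.78% to 8.37% and 14.7% to 20.5%. The main axis of variation (first principal component), with 43.9% of the variance, placed the AIN libraries at -38.6, -40.2 and -97.6 and the NWD1VitD libraries at 71.2, 79 and 76.3. NWD1Ca lay at 71.4 to 73.4 on it and AINlowVitD at 73 to 79.2. The ERCC spike-ins, RNAs added by hand to each sample, differed as well: 48 of 81 (59.3%) had another relative abundance in NWD1VitD than in AIN, 30 higher and 18 lower, by edgeR's quasi-likelihood test. This test rests on AIN 1 and AIN 3, because AIN 2 had only 12 counts of spike-ins and did not enter it. Against NWD1Ca and against AINlowVitD, 0 of 81 spike-ins differed, with 1 at an unadjusted p under 0.05 in each. The labels give no batch for these libraries. Diet and the difference that the spike-ins show cannot be told apart in NWD1VitD against AIN, and this holds for every change from AIN below.

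**Figure D1:**
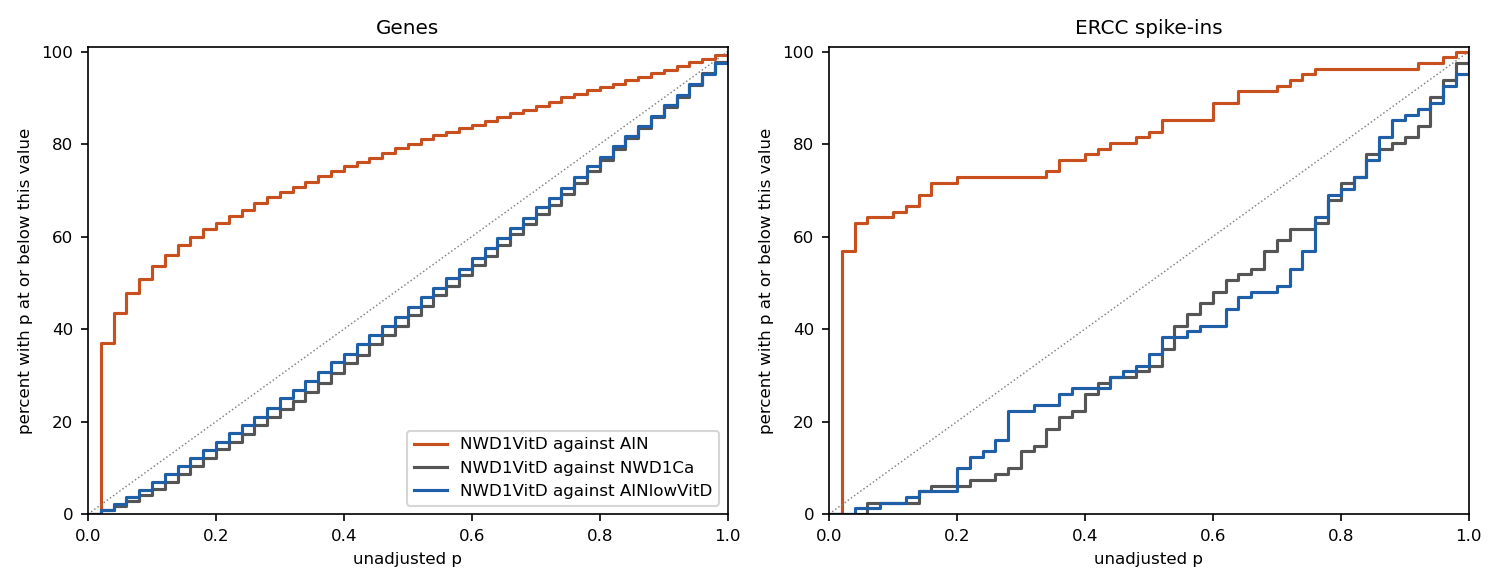
Share of genes (left) and of ERCC spike-ins (right) with an unadjusted p at or below the value on the x axis, for NWD1VitD against AIN (orange), NWD1Ca (grey) and AINlowVitD (blue). The dotted diagonal marks equal shares. Both kinds of feature lie far above it against AIN only, where 36.0% of genes and 59.3% of spike-ins were called. Against NWD1Ca and AINlowVitD both kinds lie below it.

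NWD1VitD differed from AIN in 5783 of 16050 genes, or 36.0%, at an adjusted p under 0.05 (edgeR quasi-likelihood test with Benjamini-Hochberg adjustment, the source of each adjusted p below unless another is named). Of these, 2493 (15.5% of the genes tested) were higher and 3290 (20.5%) lower in NWD1VitD. The median log2 fold change was 1.75 among the higher genes and -1.2 among the lower ones. In 7935 genes (49.4%) the 3 libraries of one diet did not overlap the 3 of the other. Without NWD1VitD 2 the number called was 3556, and without AIN 3 it was 3851. The split of rises and falls depended on the scale. On log2(TPM + 1), where TPM is the count per gene length rescaled to a fixed total, limma called 647 of 13600 genes higher (4.76%) and 7235 lower (53.2%), and the median log2 fold change of all genes was -0.92, against -0.09 on the TMM-scaled counts of the main test. Counts of list members below are from the main test, and a list's relative median is its median minus that of all genes, on counts and then on TPM. List counts on TPM are to be read beside the TPM shares of all genes, 4.76% higher and 53.2% lower.

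Against the groups with like spike-ins the picture was different. NWD1VitD differed from AINlowVitD in 0 of 16050 genes (0%), from NWD1Ca in 0 (0%) and from the mean of both in 0 (0%), by edgeR. At an unadjusted p under 0.05 there were 467, 372 and 497 genes. DESeq2 called 8, 3 and 12, and edgeR without a count filter called 68, 117 and 103. Up to an unadjusted p of 0.1 lay 7.02% of genes against AINlowVitD and 5.53% against NWD1Ca. Evenly spread p-values would give larger shares, so the 0 calls are weak evidence that these groups were alike. Some DESeq2 calls against AINlowVitD rested on few counts: Steap4 had 0, 3 and 0 in NWD1VitD and 0, 0 and 0 in AINlowVitD. Others, such as 4930523C07Rik with 130, 82 and 79 against 150, 110 and 307, did not. The smallest p against the mean of both was that of Trpv6, and the alpha-defensins Defa22 and Defa21 were among the 6 smallest. Comparisons of NWD1VitD, NWD1Ca and AINlowVitD with AIN share the AIN libraries, so each is given by its own values.

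The sorted cells carried stem cell transcripts on both diets. All 10 markers used to check the label were detected in all 6 libraries. Lgr5 itself, a receptor for R-spondins, stood at 9.49, 24.4 and 45.3 CPM (counts scaled to library size) in AIN and at 27.1, 13.8 and 18.9 in NWD1VitD, and these ranges overlapped (log2 fold change -0.47 ± 0.49 SE, adjusted p = 0.484). Of 27 tested Lgr5 stem cell genes, 5 (18.5%) rose and 5 (18.5%) fell, near the 15.5% and 20.5% of all genes. Their median was 0.24 below that of all genes on counts and 0.04 below it on TPM. Without NWD1VitD 3, 1 rose and 1 fell, and without AIN 3, 2 rose and 0 fell. Msi1, an RNA-binding protein of stem cells, rose by 2.34 ± 0.46 on the log2 scale, a call lost on log2(TPM + 1). Olfm4, a secreted stem cell marker named here after its values were seen, had 1792, 3162 and 3558 CPM in AIN and 2297, 672 and 815 in NWD1VitD (-1.45 ± 0.53, adjusted p = 0.0410), so that 1 NWD1VitD library lay within the AIN range. Its call was lost under 12 of 20 alternatives. Transcripts of mature cells were present as well. Enterocyte genes summed to 36831 to 47802 CPM in AIN and 34794 to 67609 in NWD1VitD, while markers of lymphocytes summed to 11.7 to 24.6 and 11.3 to 27.9, and those of myeloid cells to 15.5 to 21.5 and 10.5 to 13.3. In such bulk samples, fewer cells of a type and less RNA per cell cannot be told apart.

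Trpv6 (ENSMUSG00000029868.7), the apical calcium channel, had 2, 2 and 0 counts in the AIN libraries and 27, 29 and 383 in NWD1VitD. All NWD1VitD libraries were above all AIN libraries, and NWD1VitD 3 stood more than 10 times above the other 2. The pooled ratio was 275 (95% counting interval 107 to 1013), which covers counting error only and rests mostly on NWD1VitD 3. The fitted log2 fold change was 7.90 ± 1.25 (adjusted p = 0.000329), and 5.66 without NWD1VitD 3 (adjusted p = 0.000175). NWD1Ca had 1, 0 and 4 counts and AINlowVitD 5, 2 and 1, so Trpv6 was also 88.2 (37.5 to 273) and 56.7 (28.5 to 132) times their pooled level. Against the mean of both the fitted change was 6.06 ± 1.01 (adjusted p = 0.226 by edgeR), which missed the threshold, and DESeq2 gave an adjusted p = 8.83e-05. Without NWD1VitD 3 the change was 3.88 (edgeR adjusted p = 0.0476), and without NWD1VitD 1 or NWD1VitD 2 it was 6.51 (adjusted p = 0.0358) or 7.45 (adjusted p = 0.0190). Mice on NWD1 without an addition had 1071, 796 and 853 counts, or 15.9, 13.95 and 20.6 CPM, against 1.07, 1.02 and 16.85 CPM in NWD1VitD. NWD1VitD 3 thus lay within the NWD1 range and the other 2 NWD1VitD libraries far below it. The NWD1 libraries lay at -42.6 to -104.3 on the principal component above, on the side of AIN, so that here too diet and library set cannot be told apart. In AIN_VdrKO, AIN-fed mice labelled as lacking the receptor, it had 0 counts in all 3 libraries.

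S100g (ENSMUSG00000040808.4), which buffers calcium on its way through the cell, stood at 101.5, 106 and 43.2 CPM in AIN and at 1677, 2961 and 9052 CPM in NWD1VitD. Again NWD1VitD 3 was highest. The log2 fold change was 6.01 ± 1.06 (adjusted p = 0.000519), and this call held in all 20 alternative settings. S100g was 1 of 17 genes whose 3 NWD1VitD libraries lay above all 18 other libraries of the series, the highest of which, AINlowVitD 1, had 1491 CPM. Its change from AIN was 2.97 in NWD1Ca and 3.28 in AINlowVitD, and NWD1VitD exceeded their mean by 2.89 ± 0.80 (adjusted p = 1 by edgeR). Without a count filter edgeR called this difference, at 2.88 (adjusted p = 1.32e-12), and DESeq2 gave an adjusted p = 0.453.

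The promoters of these 2 genes, the largest rises of the calcium list, are shown because VDR binds DNA through pairs of short half-sites. The 250 bases before each start site, 5′ to 3′ on the gene's strand, come from RefSeq on GRCm38.p6, and capitals mark matches to the half-site word AGGTCA, the variant with T at its middle (AGTTCA), the variant opening with G (GGGTCA) and the one with both changes (GGTTCA), on either strand. Trpv6 lies at chr6:41636406-41636655 on the minus strand and S100g at chrX:162964600-162964849 on the minus strand.
Trpv6: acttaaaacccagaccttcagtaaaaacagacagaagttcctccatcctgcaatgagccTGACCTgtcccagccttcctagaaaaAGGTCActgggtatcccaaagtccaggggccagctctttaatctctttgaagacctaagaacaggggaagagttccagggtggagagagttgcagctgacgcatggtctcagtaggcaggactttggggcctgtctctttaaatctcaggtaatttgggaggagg
S100g: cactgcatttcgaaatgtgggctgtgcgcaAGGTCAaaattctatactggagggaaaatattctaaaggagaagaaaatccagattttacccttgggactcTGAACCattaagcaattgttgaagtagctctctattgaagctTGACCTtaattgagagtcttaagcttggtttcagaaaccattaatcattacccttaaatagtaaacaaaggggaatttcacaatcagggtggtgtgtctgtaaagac
Trpv6 held 2 matches and S100g 3. Of 32817 promoters of this length, 9.75% held 2 or more and 1.84% held 3 or more, and 38.6% held at least 1. A match to letters is a description and shows no binding.

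Atp2b1, the basolateral calcium pump, rose by a smaller amount, from 69.4, 87.7 and 72.6 CPM in AIN to 141, 182 and 240 in NWD1VitD (1.35 ± 0.26, adjusted p = 0.000838). On TPM its call was lost, with a change 1.07 above that of all genes. Its level was close to that in NWD1Ca and AINlowVitD, at 0.38 ± 0.23 above their mean (edgeR adjusted p = 1).

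Cldn2, which forms a paracellular pore for cations, fell from 267, 315 and 280 CPM to 104, 69.4 and 79.1 (-1.80 ± 0.36, adjusted p = 0.00111). Cldn12 and Cldn15, further claudins past the threshold, are named after their values were seen and fell by 1.23 and 1.09. Cldn25, of the list of claudins and junctions, was called lower as well, at -2.30 to -0.89 over the alternative settings.

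Of 22 tested genes of the list of VDR targets and calcium transport, 8 (36.4%) rose and 3 fell, with a median 0.61 above that of all genes on counts and 0.26 above it on TPM. Without AIN 1 and AIN 2 together 4 rose, and on TPM 3 rose and 5 fell. The list median was -0.51 in NWD1Ca and 0.06 in AINlowVitD. Slc30a10, a manganese exporter that is induced by vitamin D, is named after its values were seen. It had 5.26, 11.8 and 4.995 CPM in AIN and 14.2, 27.6 and 76.5 in NWD1VitD (2.65 ± 0.82, adjusted p = 0.0175), and the call was lost without NWD1VitD 3, without AIN 3 and on TPM. It exceeded the mean of NWD1Ca and AINlowVitD by 2.25 ± 0.68 (edgeR adjusted p = 1). Cyp24a1, the enzyme that breaks the hormone down, was too low to be tested, with 0 counts in all AIN libraries and 0, 0 and 15 in NWD1VitD. The receptor gene Vdr had 338, 373 and 746 CPM in AIN and 305, 262 and 241 in NWD1VitD. Every NWD1VitD library was below every AIN library, but the difference missed the threshold (-0.87 ± 0.35, adjusted p = 0.0605). It passed in 7 of 20 alternatives, among them those on TPM, edgeR without a count filter, the fit of the 2 groups only and the fit without AIN 2. Of 15 tested genes for VDR and its cofactors, 5 rose and 0 fell, among them the corepressor Ncor1 (1.54 ± 0.23), the remodeller Baz1b and the coactivators Crebbp and Ncoa1, the last named after its values were seen. Without AIN 2, NWD1VitD 2 or NWD1VitD 3, or without AIN 1 and AIN 2 together, 3 rose. On TPM 0 of the 15 rose and 7 fell, where 4.76% of all genes rose and 53.2% fell, and Baz1b and Crebbp turned negative.

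**Figure D2:**
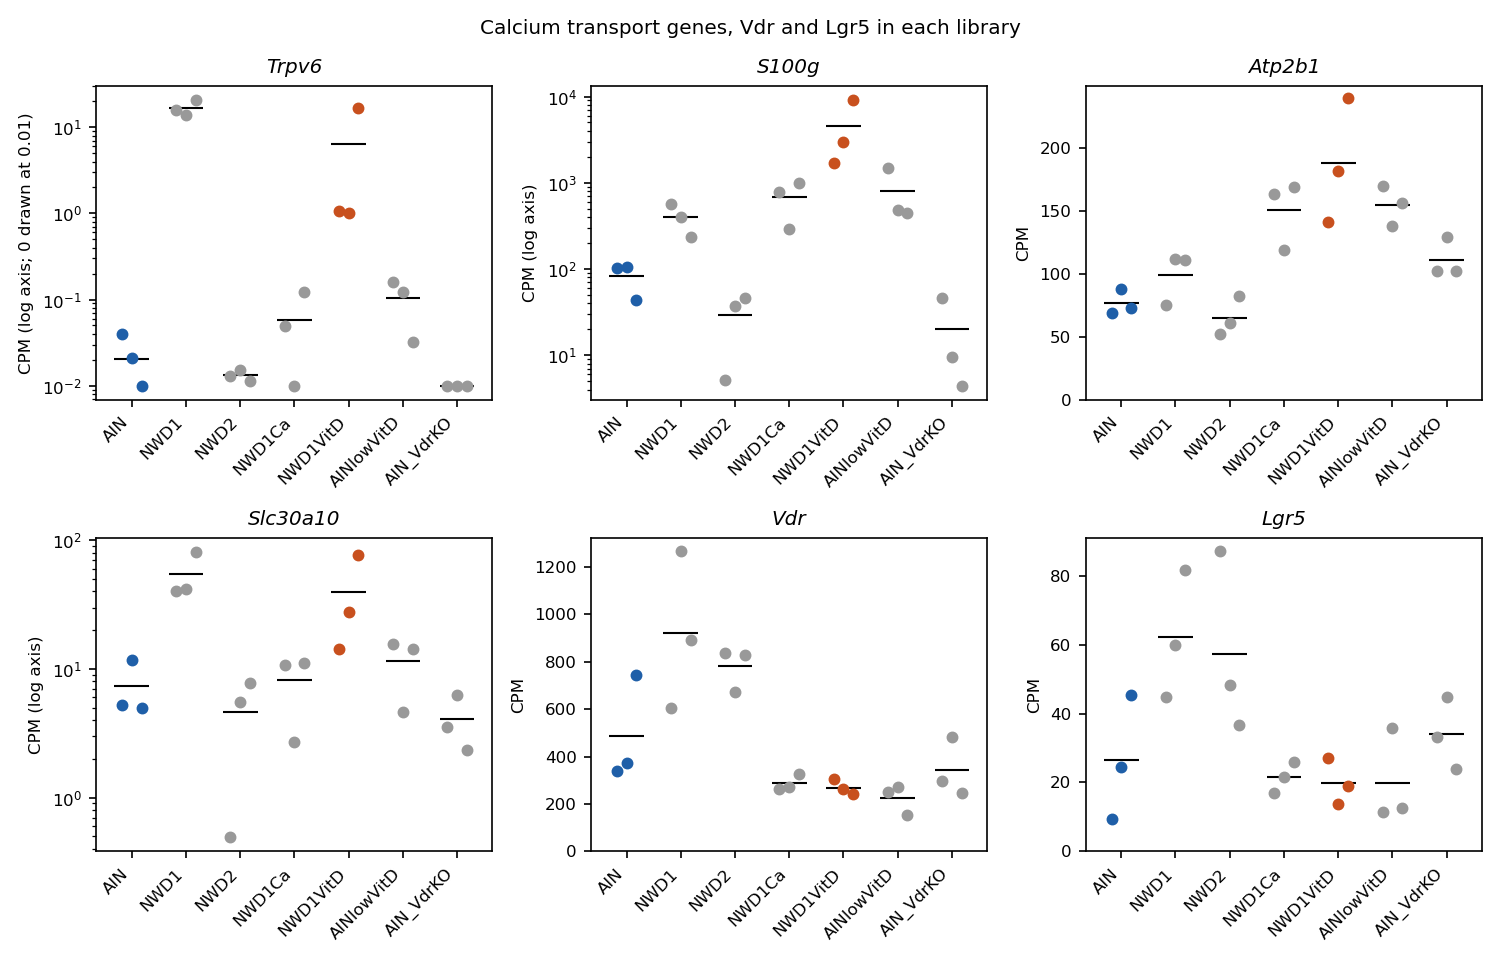
CPM of 6 genes in each of the 21 libraries (points) by diet, with the group mean as a bar; AIN is blue and NWD1VitD orange. The y axis is a log axis for Trpv6, S100g and Slc30a10, and NWD1VitD 3 is the highest NWD1VitD library for these genes and for Atp2b1.

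Metallothioneins, small proteins that bind zinc and copper and that rise with metal load, rose strongly. Mt1 had 196, 176 and 169 CPM in AIN and 1627, 6391 and 2288 in NWD1VitD (4.29 ± 0.52, adjusted p = 2.76e-05). Mt2 had 5.38, 13.1 and 6.95 CPM in AIN and 162, 790 and 334 in NWD1VitD (5.77 ± 0.92, adjusted p = 0.000254). NWD1VitD 2 was highest for both, and the 2 diets did not overlap for either. Both calls held in all 20 alternative settings. Their changes from AIN were 2.99 and 4.08 in NWD1Ca and 3.61 and 4.85 in AINlowVitD. NWD1VitD exceeded the mean of these groups by 0.99 ± 0.39 in Mt1 and by 1.31 ± 0.65 in Mt2 (edgeR adjusted p = 1 for both).

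The promoters of this pair are shown because the factor Mtf1 acts on metallothionein genes through metal response elements. The 250 bases before each start site are from RefSeq on GRCm38.p6, plus strand, at chr8:94178839-94179088 for Mt1 and chr8:94172368-94172617 for Mt2. Capitals mark the element cores TGCACNC and TGCGCNC on either strand, which 21.4% of the 32817 promoters held.
Mt1: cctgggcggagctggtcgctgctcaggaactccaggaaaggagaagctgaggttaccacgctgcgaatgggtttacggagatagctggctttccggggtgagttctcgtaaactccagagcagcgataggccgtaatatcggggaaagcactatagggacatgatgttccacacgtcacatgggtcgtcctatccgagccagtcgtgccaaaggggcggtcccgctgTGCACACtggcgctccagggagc
Mt2: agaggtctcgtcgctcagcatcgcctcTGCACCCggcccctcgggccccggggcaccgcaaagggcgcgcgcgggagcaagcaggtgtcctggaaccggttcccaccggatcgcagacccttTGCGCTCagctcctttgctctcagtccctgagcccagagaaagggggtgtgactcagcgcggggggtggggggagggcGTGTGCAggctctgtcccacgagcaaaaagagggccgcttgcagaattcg
Mt1 held 1 core and Mt2 held 3, and 1.26% of promoters held 3 or more.

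Zinc transporters moved both ways. Of 21 tested genes for metallothioneins and zinc, 6 rose and 7 fell, with a median 0.10 below that of all genes on counts and 0.07 below it on TPM. The importer Slc39a1 rose from 12.5, 15.6 and 5.49 CPM to 77.0, 69.9 and 82.7 (2.85 ± 0.39, adjusted p = 7.95e-05). Slc39a4, the apical zinc importer of the intestine that falls with zinc supply, is named after its values were seen. It fell from 331, 238 and 366 CPM to 73.1, 69.7 and 68.6 (-2.15 ± 0.42, adjusted p = 0.000989). The Golgi transporter Slc30a6 fell by 1.28. Of 16 iron genes 0 rose and 6 fell (relative median -0.52 and -0.71), among them the importer Slc11a2 (-1.18 ± 0.32), the transferrin receptor Tfrc (-1.48 ± 0.42) and its partner Hfe (-1.27 ± 0.23). The calls of Tfrc and Slc11a2 were lost without AIN 3, which held the highest AIN level of each, and that of Tfrc also without NWD1VitD 3. The iron genes that fell then numbered 2 and 3.

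On counts, secretory cell genes rose more often than they fell. On TPM this held for alpha-defensins and enteroendocrine genes but not for goblet, tuft or other Paneth cell genes. Of all genes, 4.76% rose and 53.2% fell on TPM. Beside that background the TPM medians of goblet and Paneth genes still lay 0.49 and 0.61 above that of all genes. The tuft median lay 0.04 below it. Alpha-defensins, the antimicrobial peptides of Paneth cell granules, had the highest median of all 44 lists, 4.32 above that of all genes on counts and 3.54 above it on TPM. Of 12 tested members 11 (91.7%) rose and 0 fell, and Defa23, the twelfth, had 2.38 without passing. Defa21 stood at 14.7, 17.1 and 14.8 CPM in AIN and at 107, 1182 and 4337 in NWD1VitD (7.09 ± 1.2, adjusted p = 0.000395). Defa22 had 15.0, 18.1 and 14.9 CPM against 110, 912 and 3280 (6.71 ± 1.12, adjusted p = 0.000363). Defa20 had 23.98, 42.1 and 26.3 CPM against 224, 1725 and 4185 (6.25 ± 1.05, adjusted p = 0.000379). The 3 genes were in the same order over the NWD1VitD libraries, NWD1VitD 1 lowest and NWD1VitD 3 highest, a span of more than 10 times within the diet. These genes are near-identical copies: the 250 bases before the start sites of Defa21 and Defa22 were the same at all 250 positions, and Defa20 matched both at 245, so counting may split or lose their reads. The list median was 2.25 in NWD1Ca and 3.26 in AINlowVitD. Against the mean of these groups Defa21 was higher by 4.04 ± 0.88, Defa22 by 3.96 ± 0.84 and Defa20 by 3.24 ± 0.78, with adjusted p = 0.471 for Defa21, 0.471 for Defa22 and 0.989 for Defa20 by edgeR. DESeq2 called Defa21 and Defa22.

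**Figure D3:**
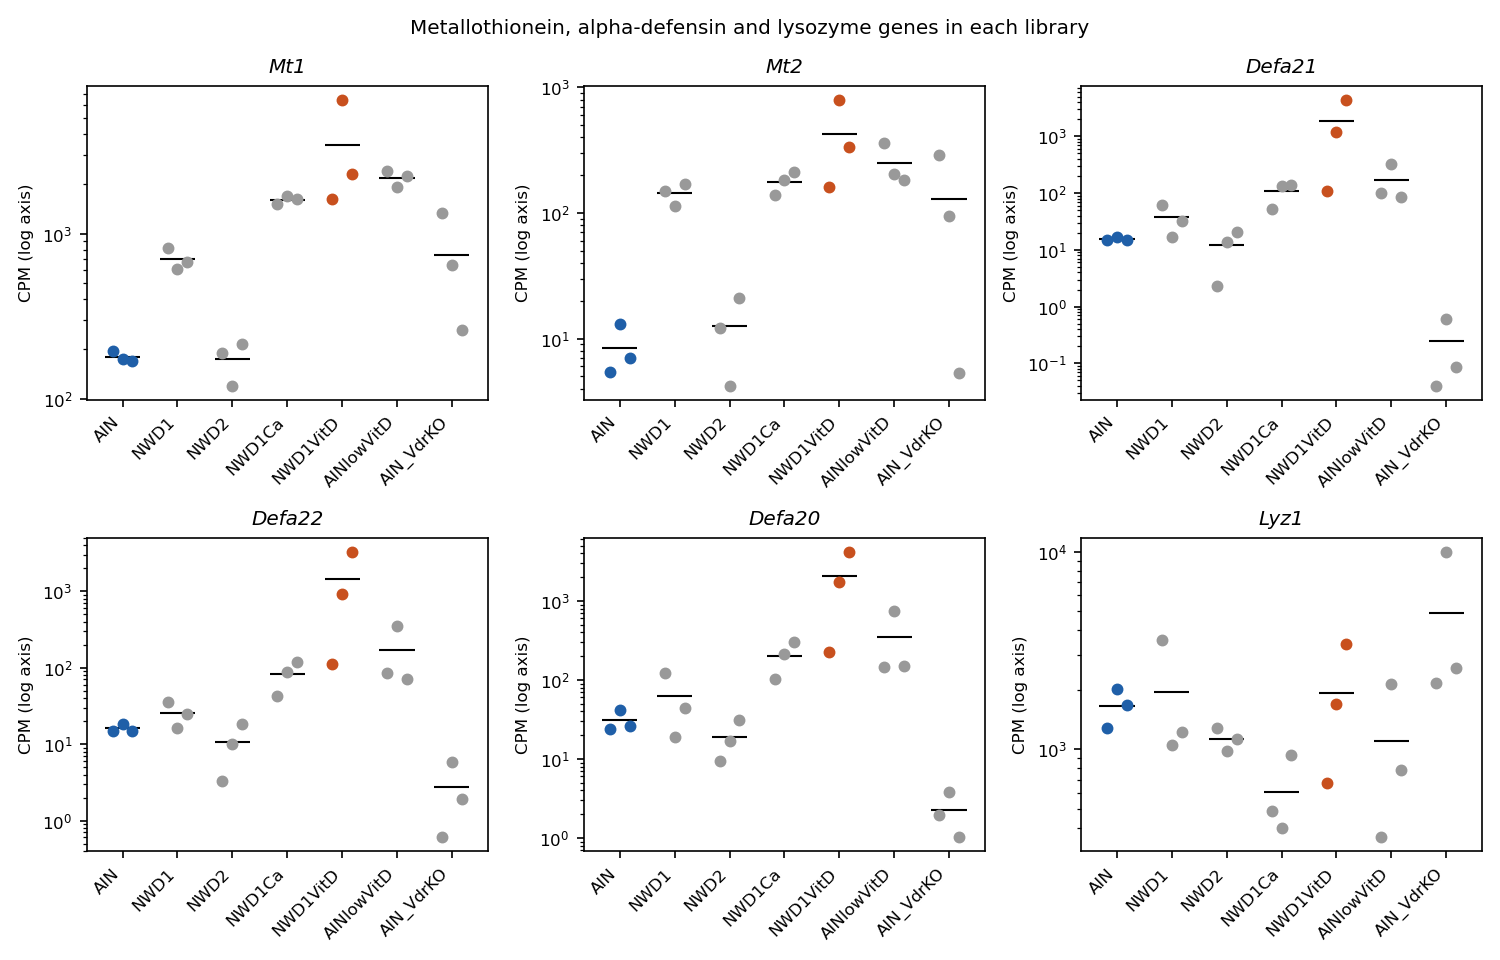
CPM (log axis) of Mt1, Mt2, 3 alpha-defensin genes and Lyz1 in each of the 21 libraries by diet, with the group mean as a bar; AIN is blue and NWD1VitD orange. NWD1VitD 2 is highest for Mt1 and Mt2 and NWD1VitD 3 for the defensins, while for Lyz1 the 2 diets overlap.

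Other Paneth cell genes moved less. Of 19 tested, 6 rose and 0 fell, with a median 1.22 above that of all genes on counts and 0.61 above it on TPM, where 2 rose and 2 fell. Without AIN 3, NWD1VitD 2 or NWD1VitD 3, 3 rose. Spink4, a trypsin inhibitor of secretory cells, rose from 3027, 2134 and 809.5 CPM to 7354, 12981 and 16054 (2.61 ± 0.63, adjusted p = 0.00394), and Ang4, an antimicrobial ribonuclease, by 1.95 ± 0.63, a call lost in 9 of 20 alternatives, among them TPM, the length correction and the fits without AIN 3, NWD1VitD 2 or NWD1VitD 3. Lyz1, the lysozyme of Paneth cells, is named after its values were seen. Its ranges overlapped, with 1288, 2015 and 1673 CPM in AIN and 678, 1699 and 3394 in NWD1VitD (0.18 ± 0.70, adjusted p = 0.871). The Paneth list, which holds no alpha-defensin but holds Tff3, summed to 11156 to 20378 CPM in AIN, 33443 to 83850 in NWD1VitD, 37628 to 40895 in NWD1Ca and 47383 to 59727 in AINlowVitD. Tff3, whose values follow below, and Spink4 made up a large part of the NWD1VitD sums, so these sums do not measure Paneth cells alone.

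Goblet and enteroendocrine genes showed 0 falls on counts. Of 24 goblet cell genes 7 rose, with a median 0.69 above that of all genes on counts and 0.49 on TPM, where 2 rose and 7 fell; without AIN 3, 4 rose on counts. Tff3, the trefoil peptide of goblet cells that also stands in the Paneth list, rose from 8278, 4167 and 2197 CPM to 19939, 37594 and 43757 (2.85 ± 0.58, adjusted p = 0.00138). Muc2, the main mucin, was named after its values were seen and had 0.98 ± 0.52 (adjusted p = 0.151). Of 29 enteroendocrine genes 15 (51.7%) rose, with a median 1.36 above that of all genes on counts and 1.06 on TPM, where 10 rose and 1 fell. The hormone genes Sct (secretin) with 134, 87.5 and 81.1 CPM in AIN and 782, 2016 and 1472 in NWD1VitD (3.89 ± 0.59, adjusted p = 0.000187) and Ghrl (ghrelin) with 84.1, 93.7 and 93.0 against 1074, 1192 and 734.5 (3.54 ± 0.59, adjusted p = 0.000372) did not overlap between diets. Sst (somatostatin) rose by 2.80 ± 0.44 and the endocrine transcription factor Insm1 by 2.55 ± 0.44. Chga, the granule protein chromogranin A, was named after its values were seen and overlapped, with 244, 343 and 326 CPM in AIN and 223, 509 and 298.5 in NWD1VitD (0.29 ± 0.41, adjusted p = 0.618). The median enteroendocrine change from AIN was 0.49 in NWD1Ca and 0.54 in AINlowVitD. Of 27 tuft cell genes 5 rose and 0 fell, a share of 18.5% near the 15.5% of all genes, with a median 0.26 above that of all genes on counts and 0.04 below it on TPM, where 2 rose and 6 fell. Without NWD1VitD 2, 3 rose, and without AIN 1 and AIN 2 together 2 did. Gng13, a G protein subunit of taste signalling, rose by 4.2 ± 0.72, whereas the tuft cell factor Pou2f3, named after its values were seen, had 0.01.

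Of 35 enterocyte genes 3 rose, 3 fell and 29 did neither, with a relative median of -0.22 on counts and -0.48 on TPM. On TPM 1 rose and 13 fell, where 4.76% of all genes rose and 53.2% fell. On TMM-scaled CPM, the NWD1VitD libraries all lay below the AIN libraries in 13 of the 35 genes and above them in 3. Over all 16050 genes tested these counts were 4338 and 3597. Fabp1, the fatty acid binding protein, rose from 3888, 3181 and 1665 CPM to 18604, 31760 and 18244 (3.14 ± 0.60, adjusted p = 0.000892), and Fabp2 and Rbp2, named after their values were seen, rose by 1.71 each. Among those lower, Fbp1 of gluconeogenesis fell by 1.95 ± 0.53 and the brush border motor Myo1a by 1.49 ± 0.48. The call of Fbp1 was lost without AIN 1 and without AIN 1 and AIN 2 together, and that of Myo1a without AIN 3 or any 1 NWD1VitD library.

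Cytosolic ribosomal protein genes were higher. Of 80 cytosolic ribosomal protein genes 54 (67.5%) rose and 0 fell, with a median 1.72 above that of all genes on counts and 1.52 on TPM, where 29 rose and 6 fell. Without AIN 3, 31 rose. Rps29 had 520, 406 and 181 CPM in AIN and 3375, 2459 and 2372 in NWD1VitD (2.90 ± 0.59, adjusted p = 0.00133). The median change of these genes from AIN was 1.84 in NWD1Ca and 1.81 in AINlowVitD, and their summed level was 58091 to 90879 CPM in NWD1VitD, 63581 to 75259 in NWD1Ca and 66221 to 81239 in AINlowVitD.

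Respiratory complex I oxidises NADH at the start of the electron chain. Of its 37 tested genes 19 rose and 4 fell (relative median 1.60 and 1.34), and on TPM 14 rose and 12 fell. Its accessory subunits Ndufc1 (2.84 ± 0.48), from 373, 261 and 168 CPM to 2093, 1952 and 1570, and Ndufb2 (2.75 ± 0.46) were among those that rose. Among those that fell were the core subunits Ndufs1, Ndufv1 and Ndufs3, named after their values were seen, by 0.83 to 1.35. In complexes II to V 21 of 40 rose and 7 fell (relative median 1.47 and 1.2), and on TPM 15 rose and 15 fell. Without AIN 1, NWD1VitD 2 or NWD1VitD 3, 4 fell, and without AIN 1 and AIN 2 together 3 did. Atp5k, a small subunit of ATP synthase, rose from 302, 225 and 143 CPM to 2271, 2048 and 1621 (3.19 ± 0.55, adjusted p = 0.000428), while Sdha, the catalytic subunit of complex II, fell from 1328, 1425 and 2125 CPM to 559, 473 and 415.5 (-1.76 ± 0.33, adjusted p = 0.000746). Gene length differed between the genes that rose and those that fell. Relative to the median of abundant genes, the complex I genes that rose had a median length of 0.28 and those that fell 0.64, and in complexes II to V these were 0.24 and 0.68. Across all genes, the median log2 fold change was 0.62 among the 3210 shortest and 0.04 among the 3210 longest. In a fit corrected for gene length 18 complex I genes rose and 5 fell, with a median log2 fold change of 0.87 in place of 1.52. In complexes II to V 20 then rose and 6 fell, with a median of 0.77 in place of 1.38. Of 75 mitochondrial ribosomal protein genes 11 (14.7%) rose and 17 (22.7%) fell (relative median -0.05 and -0.32). These shares lay near the 15.5% and 20.5% of all genes. The counts depended on single libraries: 5 rose without AIN 3 or NWD1VitD 2, 6 fell without AIN 1 and 10 fell without NWD1VitD 3. Of 13 mitochondrially encoded genes 6 rose and 0 fell on counts, but on TPM 3 of 12 rose and 3 fell. Their median change from AIN on counts was 1.25 in NWD1VitD, 0.67 in NWD1Ca and 1.37 in AINlowVitD.

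The tricarboxylic acid cycle and glycolysis were lower. Of 28 genes for the cycle and pyruvate entry 21 (75.0%) fell and 0 rose, with a median 0.98 below that of all genes on counts and 1.27 below it on TPM. Idh3a, a subunit of isocitrate dehydrogenase, fell from 614, 648 and 676.5 CPM to 254, 198 and 163 (-1.71 ± 0.28, adjusted p = 0.000314), and Pdhb of the pyruvate dehydrogenase complex by 1.22 ± 0.24. Of 23 glycolysis genes 14 fell and 1 rose, with a median 1.17 below that of all genes on counts and 0.98 below it on TPM. Without AIN 3, 8 fell. Pgam1 had 145.5, 202 and 138 CPM in AIN and 56.3, 55.1 and 36.3 in NWD1VitD (-1.71 ± 0.30, adjusted p = 0.000454). The exception was Hk2, the inducible hexokinase, which rose from 27.4, 21.3 and 15.5 CPM to 107, 135 and 130.5 (2.72 ± 0.43, adjusted p = 0.000234). The cycle's median change from AIN was -0.82 in NWD1Ca and -0.75 in AINlowVitD. Mitochondrial biogenesis genes fell in 10 of 25 cases with 1 rise (relative median -0.70 and -0.60), but in 2 without AIN 3 and in 4 without NWD1VitD 2. Ppargc1a, their coactivator, had 77.0, 52.5 and 107 CPM in AIN and 32.5, 56.1 and 41.3 in NWD1VitD, an overlap of 1 library (-0.81 ± 0.53, adjusted p = 0.243). It was called lower in 4 of 20 alternatives, all 3 on TPM and edgeR without a count filter. Of 29 cholesterol and fatty acid synthesis genes 10 fell and 1 rose (relative median -0.61 and -0.79), and with any 1 library left out of AIN, or without NWD1VitD 1 or NWD1VitD 2, 3 to 6 fell. Of 32 fatty acid oxidation genes 8 (25%) fell and 3 (9.38%) rose, against 20.5% and 15.5% of all genes (relative median -0.27 and -0.56). Without AIN 3 or without NWD1VitD 2, 4 fatty acid oxidation genes fell.

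**Figure D4:**
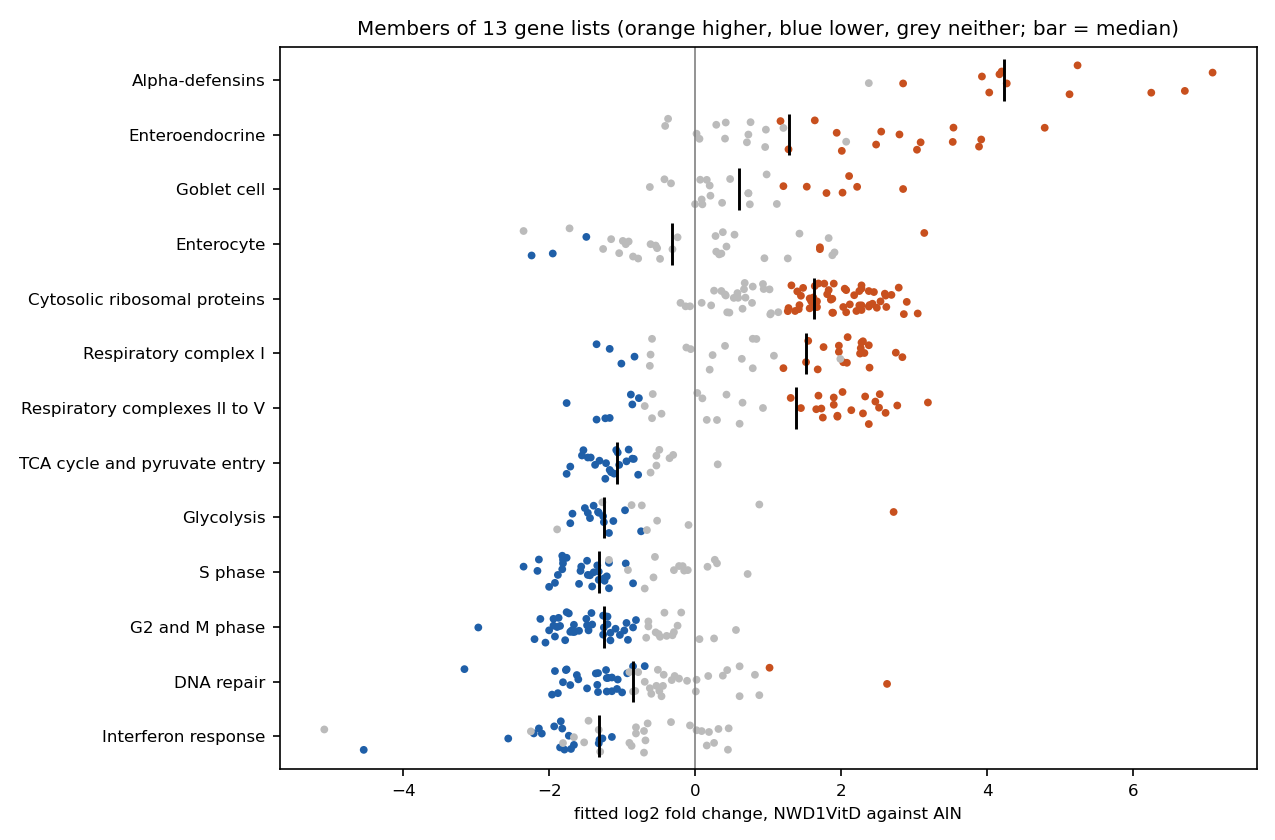
Fitted log2 fold change of NWD1VitD against AIN for each tested member of 13 gene lists, 1 point a gene, with the list median as a black bar. Orange and blue points passed the threshold upward and downward and grey points did not; alpha-defensins lie highest, and respiratory lists hold both rises and falls.

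Cell cycle genes fell. Of 43 S phase genes 29 (67.4%) fell and 0 rose, with a median 1.23 below that of all genes on counts and 1.15 below it on TPM. Without NWD1VitD 2, 16 fell, and without AIN 1 and AIN 2 together 13 did. Rrm2, a subunit of ribonucleotide reductase, fell from 141, 128 and 112 CPM to 45.1, 20.9 and 18.7 (-2.35 ± 0.40, adjusted p = 0.000387). NWD1VitD 1 was the highest of its diet, and the diets did not overlap. Of 55 G2 and M phase genes 40 (72.7%) fell and 0 rose, with a median 1.16 below that of all genes on counts and 1.21 below it on TPM. Without NWD1VitD 2, 26 fell, and without AIN 1 and AIN 2 together 20 did. The mitotic kinase Plk1 had 121, 113 and 103.5 CPM in AIN and 42.5, 27.9 and 28.4 in NWD1VitD (-1.89 ± 0.26, adjusted p = 9.22e-05), and Aurkb fell by 2.2 ± 0.31. The median changes from AIN lay lower than in the similar groups. For S phase the median was -1.32 in NWD1VitD, -0.61 in NWD1Ca and -0.73 in AINlowVitD, and for G2 and M phase -1.25, -0.54 and -0.96. The S phase medians of single libraries overlapped, at 4.26 to 5.34 log2 CPM in NWD1VitD, 4.77 to 5.27 in NWD1Ca and 4.54 to 5.26 in AINlowVitD. Those of G2 and M phase were 4.56 to 5.12, 5.18 to 5.58 and 4.91 to 5.21, so that they overlapped with AINlowVitD only. Against the mean of both groups 9 S phase and 13 G2 and M phase genes were lower at an unadjusted p under 0.05 and 0 were higher, against 211 lower and 286 higher of all 16050, and 0 passed after adjustment by edgeR. Rrm2 differed from that mean by -1.05 ± 0.35 and Aurkb by -0.78 ± 0.27 (edgeR adjusted p = 1 for both). Of 55 DNA repair genes 27 fell and 2 rose (relative median -0.76 and -0.39), with 17 falls without NWD1VitD 2 and 15 without AIN 1 and AIN 2 together. Xrcc3 changed by -1.92 ± 0.27 and the excision repair factor Xpa by 2.63 ± 0.42. Replication-dependent histone genes went the other way, with 20 of 42 higher and 0 lower and a median 1.79 above that of all genes on counts and 1.42 on TPM. Their median relative length was 0.14, and with the length correction 11 were higher, with a median of 1.00 in place of 1.71. Without AIN 3, NWD1VitD 1 or NWD1VitD 2, 6, 13 or 9 were higher. Hist1h2ae rose by 3.67 ± 0.64. Their median change was 2.12 in NWD1Ca and 1.84 in AINlowVitD.

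Interferon response genes were lower as well. Of 43 tested, 17 (39.5%) fell and 0 rose, with a median 1.22 below that of all genes on counts and 0.85 below it on TPM. Bst2 (tetherin), which holds budding virus at the cell surface, was the largest fall of the comparison among the genes named by rule, from 46.1, 39.4 and 21.3 CPM to 0.711, 2.88 and 0.704 (-4.54 ± 0.60, adjusted p = 6.11e-05). Oas1a, an RNA sensor, fell from 88.2, 95.7 and 63.2 CPM to 16.1, 27.3 and 18.3 (-1.93 ± 0.34, adjusted p = 0.000533). Of 25 MHC class I genes 8 fell and 0 rose (relative median -0.71 and -0.81), and 5 fell without AIN 3, NWD1VitD 1 or NWD1VitD 2. Among them was Tap2, the peptide transporter, which fell from 25.4, 23.9 and 31.3 CPM to 1.98, 4.60 and 3.92 (-2.85 ± 0.38). The interferon median change from AIN was -1.46 in NWD1Ca and -0.80 in AINlowVitD.

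**Figure D5:**
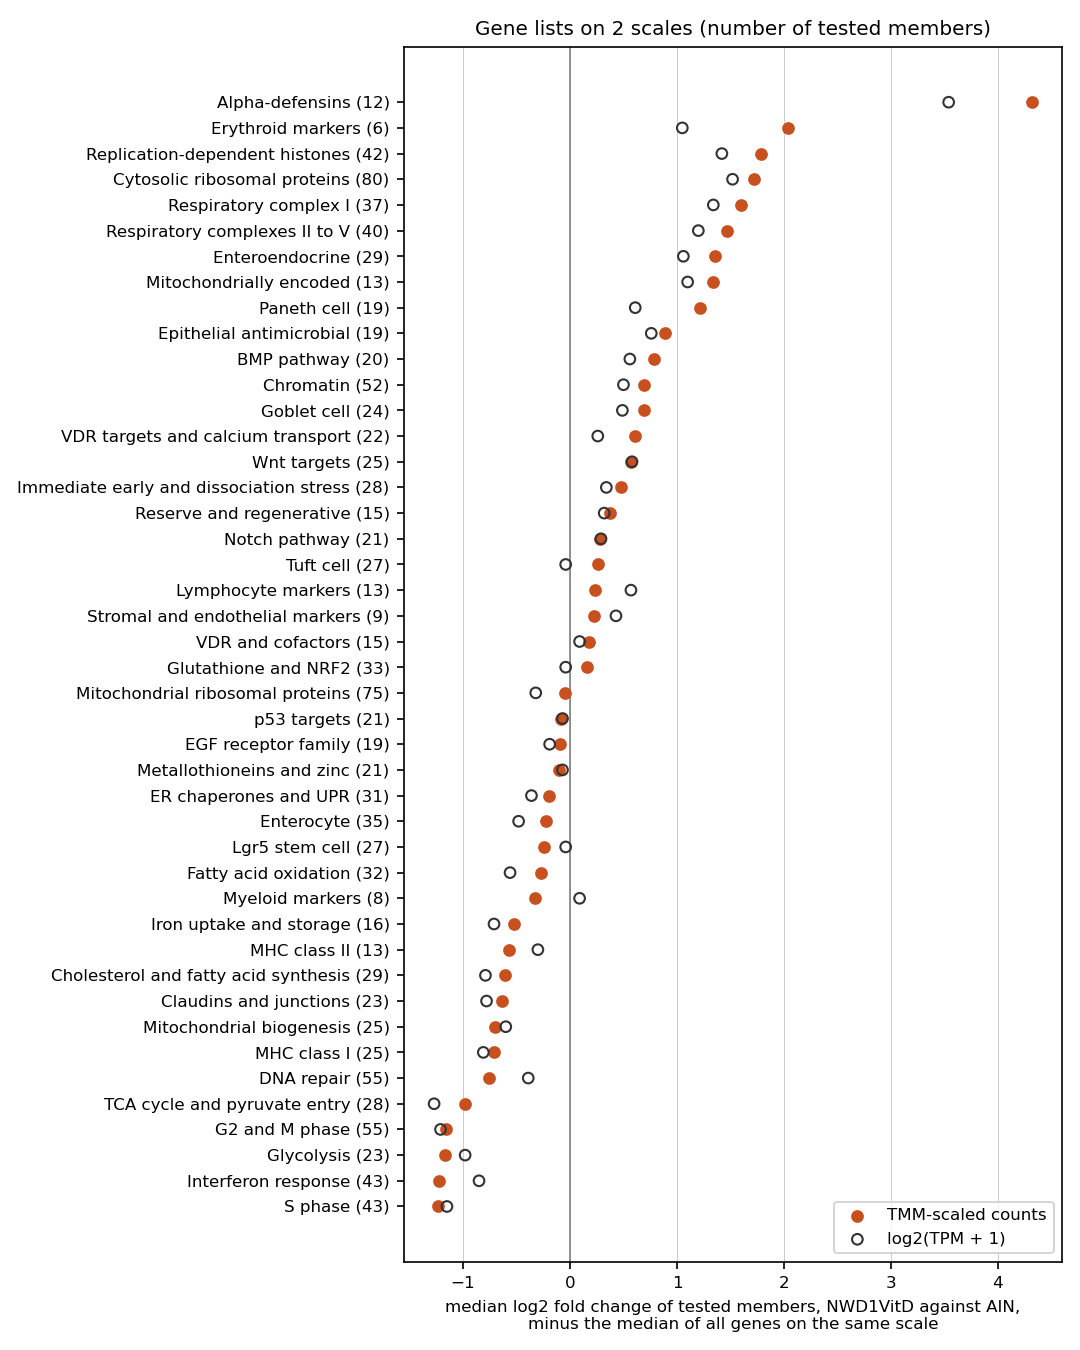
Median log2 fold change of the tested members of each of 44 gene lists, NWD1VitD against AIN, minus the median of all genes, on TMM-scaled counts (filled) and on log2(TPM + 1) (open). Alpha-defensins are highest on both scales, and S phase, interferon, glycolysis, mitosis and tricarboxylic acid cycle genes are lowest on counts.

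Signalling and chromatin lists showed mixed changes. On TPM, 4.76% of all genes rose and 53.2% fell, the background for the TPM counts of these lists. Of 21 Notch genes 3 (14.3%) rose and 2 (9.52%) fell, against 15.5% and 20.5% of all genes (relative median 0.28 and 0.29). On TPM 1 Notch gene rose and 7 fell. The target Hes1 rose from 40.2, 46.6 and 12.4 CPM to 492, 214 and 195 (3.19 ± 0.66, adjusted p = 0.00146). Of 25 Wnt target genes 8 rose and 1 fell (relative median 0.57 and 0.58), and on TPM 2 of 20 rose and 5 fell. With AIN 3 or any 1 NWD1VitD library left out 3 to 4 rose. The gene that fell was Myc (-1.43 ± 0.39), whose call was lost without NWD1VitD 2 and without AIN 1 and AIN 2 together. Sox4 rose by 3.15 ± 0.79. Of 20 BMP genes 8 rose and 0 fell (relative median 0.79 and 0.56). On TPM 1 of 18 rose and 5 fell, and on counts 5 rose without AIN 3 or NWD1VitD 2. Smad4, the shared mediator, rose by 1.52 ± 0.30, a call lost on TPM. Of 52 chromatin genes 22 rose and 3 fell, led by the histone demethylase Kdm6b, from 6.66, 7.90 and 4.95 CPM to 35.6, 63.4 and 54.7 (3.05 ± 0.30, adjusted p = 2.95e-06). The relative median was 0.69 and 0.50. On TPM 2 of 51 chromatin genes rose and 10 fell, and on counts 13 rose without NWD1VitD 3. Of 23 claudin and junction genes 10 fell and 0 rose (relative median -0.64 and -0.78), with 5 falls without AIN 3 and 6 without NWD1VitD 2. Among them was the junction protein Ocln, which fell from 199, 226 and 345 CPM to 88.2, 77.6 and 74.0 (-1.67 ± 0.37).

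The largest rise by the naming rule was that of AC140318.1, a gene known here by its clone name, from 0.498, 0.370 and 0.279 CPM to 101.9, 18.5 and 18.6 (7.12 ± 0.70, adjusted p = 3.44e-06). AL844840.2 rose by 6.30 ± 0.72 and AC165092.1 by 5.95 ± 0.89, and these 3 calls held in all 20 alternatives. In the similar groups all 3 genes overlapped their NWD1VitD levels. AC140318.1 had 16.6 to 20.6 CPM in NWD1Ca and 8.24 to 22.7 in AINlowVitD. AL844840.2 had 179.3 to 362.9 and 164.7 to 335.3, and AC165092.1 had 5.54 to 27.98 and 8.12 to 38.2. The next rises beside defensins and Mt2 were Cebpb, a transcription factor of acute phase and differentiation genes, and Ppp1r14a, an inhibitor of myosin phosphatase. Cebpb had 0.538, 1.23 and 0.343 CPM in AIN and 27.6, 37.0 and 21.8 in NWD1VitD (5.36 ± 0.53, adjusted p = 3.5e-06). Its change from AIN was 5.81 in NWD1Ca and 5.88 in AINlowVitD. Ppp1r14a had 0.239, 0.0845 and 0.171 CPM against 8.42, 8.43 and 9.46 (5.72 ± 0.48, adjusted p = 5.07e-07), and 6.06 and 5.73 in the similar groups. The largest falls after Bst2 were Kifc1, a mitotic kinesin (-4.18 ± 0.41), the ubiquitin ligase Rnf25 (-3.72 ± 0.31) and the chloride channel protein Clic1, from 397, 268 and 238 CPM to 20.2, 27.3 and 27.3 (-3.64 ± 0.29, adjusted p = 5.07e-07). Clic1 changed by -3.64 in NWD1Ca and -3.52 in AINlowVitD. The calls of Cebpb, Ppp1r14a, Kifc1, Rnf25 and Clic1 held in all 20 alternative settings.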

How the data were processed

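RNA of sorted cells was isolated, amplified with SMART-Seq v4 and made into paired-end libraries with Nextera XT, per the labels' protocols; the kit does not mark strand. The authors deposited 1 table of read counts per gene, not normalised, and 1 of TPM values, each a count over a gene length, scaled to a common sum. The tools listed in the submitters' processing notes are STAR (2.4.2a), HTSeq (0.6.1) and edgeR, and the build is mm9. Labelled sex and sex-linked genes went together in all 21 libraries, and no replicate pair was a repeated library. Here all 21 libraries entered 1 fit in edgeR 4.0.16 (R 4.3.3) with a mean per diet and a sex term, TMM scaling and filterByExpr; ERCC spike-ins were left out and tested apart. P-values are two-sided and adjusted by Benjamini-Hochberg with a threshold of 0.05; a list's members rose or fell when past it. CPM uses TMM-scaled library sizes. Alternatives used DESeq2 1.42.0, limma 3.58.1 on log2(TPM + pseudocount 1 or 0.1), other filters and scalings, a length correction and left-out libraries. Scripts were tested on simulated data. Gene lists (44) and comparisons were chosen with earlier results of these data known. Genes named are the 12 largest rises and 12 largest falls without overlap at a mean log2 CPM of at least 2 (sex-linked, predicted, Rik and LOC genes left out), in each list the called members of smallest p, at most 4, and Vdr, Cyp24a1, Trpv6, S100g, Atp2b1, Lgr5 and Ppargc1a; some that meet the rule are not described. Genes with near-identical copies (defensins, ribosomal proteins, histones, Gapdh, Mt1 and Mt2) may share reads.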

Additional observations from a re-analysis of the deposited data

How the results depend on the processing

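Of 3572 values of 179 named genes under the alternatives, 3290 (92.1%) kept direction and side of the threshold, 245 lost the call, 12 gained it and 25 reversed. The cause of these changes was not tested. With libraries left out 1 at a time, calls against AIN ranged from 3556 (without NWD1VitD 2) to 5700, rises from 1574 to 2713 and falls from 1982 to 3158. Limma on log2(TPM + 1) gave 647 rises and 7235 falls, with a pseudocount of 0.1 it gave 670 and 7601, and without a filter 611 and 6632. Counts under the other settings stayed within 1.5 times. Against AINlowVitD, NWD1Ca and the mean of both, DESeq2 called 8, 3 and 12 genes and edgeR without a count filter 68, 117 and 103; without the sex term 1 gene, Trpv6, passed against the mean, as it did without each NWD1VitD library in turn (1 to 1 gene). Replicate numbers did not pair the samples (correlations of -0.05, -0.03 and 0.04 between same-numbered libraries); with a replicate block 5902 genes were called, 2639 higher and 3263 lower, 5651 with the block and length correction together, and 0 against either similar group. On log2(TPM + 0.1), log2(TPM + 1) and the latter unfiltered, these genes reversed: Baz1b (-0.23, -0.21, -0.21), Crebbp (-0.22, -0.20, -0.20), Ephb2 (-0.39, -0.29, -0.29), Yap1 (-0.06, -0.05, -0.05), Lgr4 (-0.39, -0.36, -0.36), Chga (-0.80, -0.79, -0.79) and Lyz1 (-1.25 in each). Lyz1 was -0.14 with the block and length correction, Chga -0.16 without AIN 1 and AIN 2 together. With libraries left out in turn Lyz1 ranged from -0.50 (without NWD1VitD 3) to 0.54 and Lgr5 from -0.70 to 0.23 (without AIN 3).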

Other observations

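In 17 genes all 3 NWD1VitD libraries lay above the other 18 libraries of the series and in 34 genes below them, and the same counts were 32 and 19 for NWD1Ca, 37 and 23 for AINlowVitD, 93 and 22 for AIN and 224 and 133 for AIN_VdrKO. The 17 genes above were the fewest of the 7 groups. Besides S100g, the 17 included Fxyd3, a regulator of the sodium pump, with 213.3 to 356.8 CPM against at most 199.3 elsewhere, the cell cycle inhibitor Cdkn1c with 17.75 to 31.22 against at most 17.09, and the myosin light chain Myl7 with 93.04 to 150.3 against at most 81.68. These genes were chosen after their values were seen. In the comparison with the mean of NWD1Ca and AINlowVitD, in which edgeR called 0 genes after adjustment and DESeq2 12, 6 of 12 alpha-defensins, 7 of 29 enteroendocrine genes and 7 of 22 VDR target genes were higher at an unadjusted p under 0.05 and 0 were lower, against 286 higher and 211 lower of 16050 genes, while 0 of 80 cytosolic ribosomal protein genes and 0 of 37 complex I genes differed in either direction. Of 75 mitochondrial ribosomal protein genes 11 were lower at that level and 0 higher, and of 28 immediate early and dissociation stress genes 5 were lower and 0 higher.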
